A study of Mus musculus with 20 samples.

Results

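The comparison described here is that of wild type and Nox4-/- mouse cells on day 7 of embryoid body differentiation, with 4 of the 20 RNA-seq libraries of the study and 2 cell lines on each side. Each line gave 1 library on that day. A gene was counted as different when both wild type values lay on one side of both Nox4-/- values, that is, when the genotypes did not overlap. Of 55573 genes in the table, 15761 passed a filter on low counts, and 7106 of these did not overlap.

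Nox4 is an NADPH oxidase that is active without an outside trigger and gives off mainly hydrogen peroxide, which at low levels serves as a signal in cells. Embryoid bodies are clumps of pluripotent cells that, once the factor keeping them undifferentiated is withdrawn, form derivatives of endoderm, mesoderm and ectoderm in a loose order resembling that of the early embryo. The question was which genes separated the genotypes at a time when wild type cultures were forming these derivatives.

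The wild type lines were WT#1-4 and WT#20D-17, and the Nox4-/- lines were #5-8 and #5-23. WT#1-4, #5-8 and #5-23 are induced pluripotent stem cells (iPSCs), clones made from embryonic fibroblasts with retroviruses that carry Oct4, Sox2, Klf4 and c-Myc, so that these 3 lines share the 4 factors. The iPSCs were grown with LIF on fibroblast feeder cells that could no longer divide. For differentiation, LIF was left out, the cells hung in drops for 3 days and were then plated on gelatin. The knockout mice lack Nox4 in every cell, so that the deletion was present from the fibroblasts onwards. How the line WT#20D-17 was derived is not given in the sources used here, and it was taken as wild type from its label.

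The libraries held 20294968 to 25114678 counts on day 7, and values are given as CPM, the counts of a gene relative to a library total of fixed size, after TMM scaling over these 4 libraries. A count of 3 in a library, taken as the floor, was 0.12 to 0.148 CPM. The library of WT#20D-17 stood apart. The Pearson correlation of log2(CPM + 1) across the tested genes was 0.975 between the Nox4-/- lines, 0.953 and 0.942 between WT#1-4 and each of them, and only 0.825, 0.808 and 0.789 between WT#20D-17 and WT#1-4, #5-8 and #5-23. Of the genes lower in Nox4-/- without overlap, WT#1-4 was the wild type value nearer to the Nox4-/- lines in 74.5%, and of those higher in 73.0%. A large mean difference thus often rests on WT#20D-17. The gap between the nearest wild type and Nox4-/- libraries is instead set by the nearer wild type line, which was mostly WT#1-4. For this reason genes are ordered below by that gap, in log2(CPM + 1) units, and each is given by line.

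The 7106 genes without overlap were 45.1% of those tested. On the Nox4-/- side 3389 genes (21.5%) were lower and 3717 (23.6%) were higher. Most gaps were small, with a median of 0.298 log2 units among the lower genes and 0.211 among the higher ones. With a gap of at least 1, 452 genes (2.87%) were lower and 174 (1.1%) were higher, so that lower genes made up 72.2% of those with a wide gap and 47.7% of all without overlap. At a gap of at least 3, 22 genes were lower and 6 higher. With 2 lines against 2 there can be no exact permutation p below 0.33. In edgeR's quasi-likelihood test no gene passed a false discovery rate of 0.05 (0.0%), and the lowest adjusted p was 0.607. The same test gave an unadjusted p under 0.05 for 1265 genes (8.03%), 940 lower and 325 higher. With the same 4 libraries, edgeR's exact test called 331 genes (2.1%) and DESeq2 753 genes (4.78%). The biological coefficient of variation was 0.586. The p-values measure the spread between single libraries of clones. All day 7 differences below are therefore descriptions, read beside the shares of 21.5% and 23.6%. In edgeR's quasi-likelihood test the adjusted p of every tested gene was 0.607 or more.

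At the edge of the rule, Pou5f1, which encodes Oct4, counted as higher in Nox4-/- with 3011 CPM in WT#1-4 against 3021 in #5-8. It had 82.6 CPM in WT#20D-17 and 3863 in #5-23. Btg2, an antiproliferative gene, counted as lower with 141 CPM in WT#20D-17 against 140 in #5-23. Rrm2, a subunit of ribonucleotide reductase, lay just outside, with 122 CPM in both WT#1-4 and #5-23. Values this close do not differ beyond the spread between lines.

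Nox4 itself (chr7:87246096-87398710, GRCm38) had 12 counts in WT#1-4 and 203 in WT#20D-17, and 1 count in #5-8 and 0 in #5-23. On the CPM scale this was 0.479 and 9.14 against 0.0494 and 0. The genotypes did not overlap and both Nox4-/- libraries were under the floor, although WT#1-4 was low as well. Among the partners of the NADPH oxidases, Cyba, the membrane subunit p22phox that stabilises Nox4, overlapped, with 5.51 CPM in WT#1-4, 70.0 in WT#20D-17, 14.7 in #5-8 and 14.9 in #5-23. Poldip2, a protein described as a partner of Nox4, was higher in both Nox4-/- lines, at 294 and 317 CPM against 246 and 75.4. Of the 17 listed oxidase genes 7 passed the filter, with 1 lower and 2 higher. Within 5 Mb of Nox4, 41 genes were tested, and 8 were lower and 8 higher.

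The widest gap among lower genes was that of Pdpn, which encodes podoplanin, a mucin-like membrane protein of lymphatic endothelium and many stromal cells. It had 53.6 CPM in WT#1-4, 79.8 in WT#20D-17, 0.445 in #5-8 and 0.0926 in #5-23. The difference of Nox4-/- minus wild type was -5.72 ± 0.347 on the log2(CPM + 1) scale (SE, n = 2 lines a side). Cbx7, a chromobox protein of Polycomb repressive complex 1 in pluripotent cells, came next, with 59.4 and 70.8 CPM in wild type against 0.692 and 0.278. Both wild type lines were alike in these genes, and both Nox4-/- lines were under 1 CPM. Apobec3 overlaps Cbx7 on the opposite strand, and the sum of both genes was lower in Nox4-/- too.

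The widest gap among higher genes was that of Avil, which encodes advillin, an actin-binding protein of the gelsolin family. It stood at 2.39 CPM in WT#1-4 and 0.045 in WT#20D-17, and at 90.9 in #5-8 and 158 in #5-23, a difference of 6.0 ± 0.936. Avil overlaps Tsfm on the opposite strand, and their sum was higher in Nox4-/- as well. Ces2g, a carboxylesterase, had 0.599 and 0.045 CPM in wild type against 23.4 and 26.8. In both genes the wild type lines were far below the Nox4-/- lines.

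The sequences below show the start regions of these 4 genes, because these genes had the widest gaps on day 7 and were low in both lines of a genotype. DNA methylation at the dinucleotide CG is a common mark of silent promoters, and it was not measured here. Each is the window of 250 bases before the gene start in RefSeq (GRCm38.p6), 5′ to 3′ on the strand of the gene, with CG in capitals, counted on the printed strand (CG reads the same on both). Of 32851 such windows, the median held 6 CG. The window of Pdpn, chr4:143299565-143299814 on the minus strand, held 2, and 81.2% of all windows held as many or more. That of Cbx7, chr15:79932647-79932896 on the minus strand, held 23, as did or surpassed 13.3%. That of Avil, chr10:127000459-127000708 on the plus strand, held 1 (92.1%), and that of Ces2g, chr8:104961468-104961717 on the plus strand, held 3 (71.0%). The genes low in one genotype thus had start regions both rich and poor in CG, and the windows are shown as a description.
Pdpn: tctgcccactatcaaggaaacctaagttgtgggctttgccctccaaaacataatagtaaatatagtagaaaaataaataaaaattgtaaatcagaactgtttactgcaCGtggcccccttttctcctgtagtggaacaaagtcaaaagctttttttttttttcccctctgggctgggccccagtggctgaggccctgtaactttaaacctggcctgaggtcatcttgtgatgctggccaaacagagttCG
Cbx7: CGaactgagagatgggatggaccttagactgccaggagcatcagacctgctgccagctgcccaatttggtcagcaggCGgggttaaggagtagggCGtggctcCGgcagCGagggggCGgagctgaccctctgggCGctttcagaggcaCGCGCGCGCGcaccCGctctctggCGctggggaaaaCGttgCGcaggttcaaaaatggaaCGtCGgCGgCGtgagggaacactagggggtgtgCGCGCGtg
Avil: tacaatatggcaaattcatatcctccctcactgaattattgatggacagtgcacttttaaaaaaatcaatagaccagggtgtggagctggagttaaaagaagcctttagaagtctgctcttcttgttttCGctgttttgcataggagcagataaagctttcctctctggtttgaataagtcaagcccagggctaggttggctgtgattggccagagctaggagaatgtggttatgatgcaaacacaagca
Ces2g: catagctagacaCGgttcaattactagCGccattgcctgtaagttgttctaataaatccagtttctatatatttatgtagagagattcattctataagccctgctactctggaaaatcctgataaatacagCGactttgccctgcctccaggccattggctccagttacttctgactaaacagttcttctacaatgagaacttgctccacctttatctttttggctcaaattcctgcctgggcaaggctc

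The other lower genes of the widest gaps fell into 2 kinds. In the first, the wild type lines were alike. Repin1, a zinc finger protein, had 32 and 23.8 CPM in wild type against 0.0494 and 0.0926, which are 1 and 2 counts. Rassf4, a protein with a Ras association domain, had 28.2 and 33.1 against 0.445 and 0.463, a difference of -4.44 ± 0.112. Armcx2, an armadillo repeat gene of the X chromosome, had 58.2 and 69.0 against 2.47 and 0.0926. Here #5-8 was the higher of the Nox4-/- lines. Stk26, a kinase of the germinal centre kinase family, had 26.3 and 36.9 against 0.988 and 0.833. Cdcp1, a membrane protein phosphorylated by Src kinases, had 22.5 and 39.3 against 0.593 and 0.185. Smoc1, a secreted protein that binds calcium, had 20.4 and 37.7 against 0.988 and 0.37. In all 6 genes the wild type lines were nearer to each other than to either Nox4-/- line.

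In the second kind, WT#20D-17 was far above WT#1-4. Igf2, insulin-like growth factor 2, a growth factor of the embryo expressed from the paternal copy, had 57.3 CPM in WT#1-4 and 4774 in WT#20D-17, against 3.61 in #5-8 and 3.94 in #5-23. Dpp4, a membrane peptidase, had 16.5 and 282 against 0 and 0.0463. Slc38a4, an imprinted amino acid transporter, had 16.0 and 499 against 0.198 and 0. Each wild type line was above both Nox4-/- lines, but the difference of Igf2, -6.79 ± 3.18, carried an SE set by the distance between the wild type lines.

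Nnt, the mitochondrial transhydrogenase that makes NADPH, was among the 12 lower genes with 12.2 and 10.4 CPM against 0 and 0. Its identity is uncertain. A second, near-identical gene model of the same locus had 54.4 and 24.5 CPM in wild type against 106 and 118, and the sum of the models was higher in Nox4-/-. How reads were assigned between the models was not tested.

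Among the higher genes, Ntn1, which encodes the guidance molecule netrin 1, had 15.9 and 6.58 CPM in wild type against 138 in #5-8 and 171 in #5-23. Laptm5, a lysosomal membrane protein of blood cells, had 13.6 and 3.29 against 95.2 and 115. Sox2, a transcription factor of pluripotent and neural cells and also part of the retroviral mix, had 4.55 and 16.3 against 90.9 and 194. These 3 were expressed in all lines, at levels far apart between genotypes.

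The remaining ones were under 3 CPM in both wild type lines. Serpina1e, a serine protease inhibitor of the alpha-1-antitrypsin family, had 2.0 and 0 CPM in wild type against 48.1 and 31.3, and the cluster it belongs to holds close copies. Serpina3n, another inhibitor, had 1.16 and 0.225 against 12.9 and 82.2. Ttll13, a tubulin polyglutamylase, had 2.79 and 1.04 against 27.7 and 24.8. Lypd5 had 0.878 and 0.045 against 47.7 and 12.4, Sectm1a had 0 and 0.0901 against 26.0 and 7.82, and Myrip, which links melanosomes and secretory granules to myosin, had 0 and 0.0901 against 8.0 and 10.9. Hoxc10, a homeobox gene of the posterior body, had 0 and 2.39 against 20.1 and 20.3. The plot of these 24 genes by line shows both groups of points apart for every gene.

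**Figure D1:**
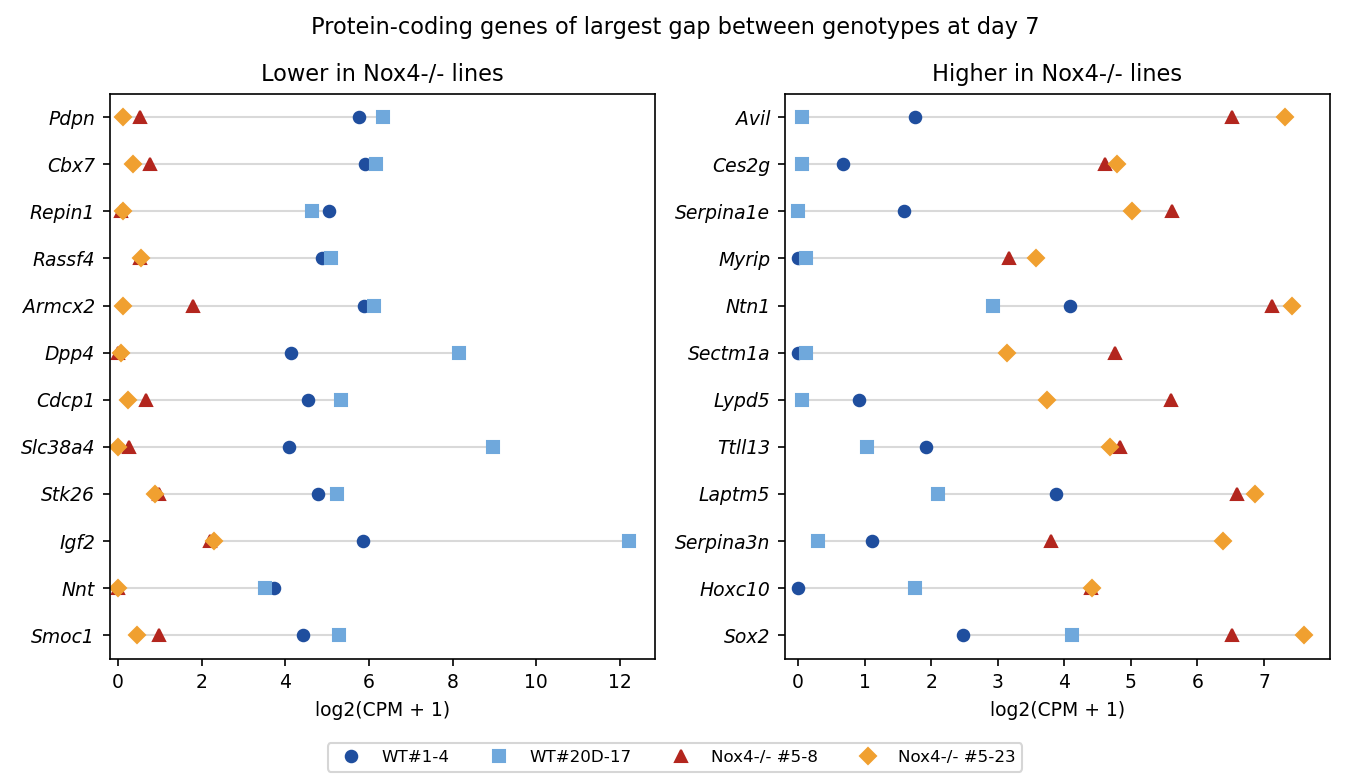
Level on day 7, on the log2(CPM + 1) scale, of the 12 protein-coding genes lower and the 12 higher in Nox4-/- with the widest gap between the nearest wild type and Nox4-/- libraries. Each point is 1 library, and the lines are told apart by colour and symbol. Pdpn has the widest gap of the lower genes (5.24) and Avil that of the higher ones (4.76), and the genes were chosen for these gaps.

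Gene groups were described by lists of known function. A list gene that passed the filter through the group in which it is high had to differ, so the counts that follow describe the genes measured and support nothing further. The median difference over all tested genes was 0.027. Because these are mixed cultures, fewer cells of a type and less RNA per cell cannot be told apart.

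Genes of cholesterol synthesis were lower on day 7, at nearly equal summed levels in the lines of a genotype. All 20 listed genes were tested, 16 were lower in Nox4-/- without overlap and 1 was higher, with a median difference of -0.95. The summed level was 2080 CPM in WT#1-4 and 2116 in WT#20D-17, against 1155 in #5-8 and 1153 in #5-23. Msmo1, a sterol demethylation enzyme, had 96.4 and 93.5 CPM in wild type against 30.3 and 24.9, a difference of -1.75 ± 0.138. Cyp51, the lanosterol demethylase, had 143 and 124 against 50.2 and 55.5, and its sum with Akap9, which overlaps it on the opposite strand, was lower too. In both genes the lower wild type value was more than double the higher Nox4-/- value.

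Squalene epoxidase (Sqle) had 79.9 and 94.4 CPM against 36.4 and 28.8. The synthase at the entry of the pathway, Hmgcs1, had 277 and 295 against 133 and 116. Fdft1, which makes squalene, had 220 and 234 against 107 and 120. Ebp, a sterol isomerase, was the gene higher in Nox4-/-, at 93.8 and 111 against 75.0 and 45.8. With any single line left out, 16 to 18 of the 20 were lower without overlap, while from 5361 of 17873 (without #5-23) to 7767 of 17518 (44.3%, without WT#1-4) of all genes were lower in these settings.

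**Figure D2:**
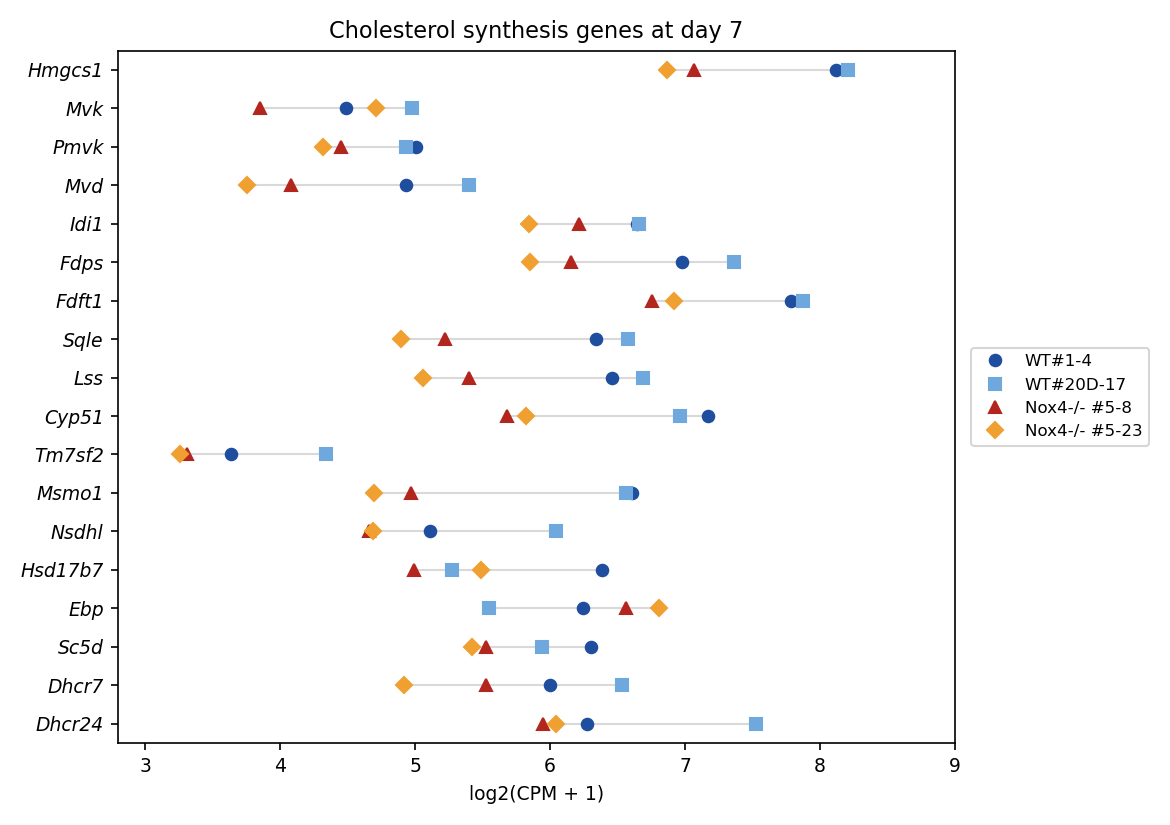
Level on day 7, on the log2(CPM + 1) scale, of 18 of the genes of cholesterol synthesis in the 4 lines, each point being 1 library. The Nox4-/- points lie below both wild type points in 15 of these and above them in 1.

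The group was not lower at all times in the same lines. Of its 20 genes 1 was lower without overlap on day 0, 8 on day 3, 16 on day 5, 16 on day 7 and 1 on day 14, with medians of -0.10, -0.51, -0.81, -0.95 and -0.49. Msmo1 overlapped on day 0, with 32.7 and 70.2 CPM in wild type and 46.0 and 42.6 in Nox4-/-. It overlapped again on day 14, when WT#1-4 had 355 and WT#20D-17 31.2 CPM, against 43.9 and 84.4. Sqle did likewise, with 209 and 40.7 CPM on day 14 against 33.1 and 61.6. In these genes the wild type lines were thus far apart on day 14 and close on day 7.

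Epithelial and tight junction genes were lower in 14 of the 18 that passed the filter out of 20, and higher in 0, with a median of -1.69. Cldn3, a claudin of tight junctions, had 28.1 and 18.8 CPM against 0.296 and 1.48. Esrp1, a splicing factor of epithelial cells, had 57.1 and 92.0 against 6.27 and 9.58, a difference of -3.07 ± 0.434. Cldn4 had 10.3 and 85.2 against 0.593 and 0.139, and the keratin gene Krt18 14.2 and 862 against 1.19 and 0. In Krt18 the wild type lines were further apart than WT#1-4 was from #5-8. Without WT#20D-17, when 37.9% of all tested genes were lower and 38.2% higher, 16 of 19 were lower and the median was -1.14.

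Fibroblast genes were lower as well, and this list stands for feeder cells and for mesenchymal cells formed in the culture alike. Of 18 listed genes 15 passed, 10 were lower and 0 higher, and the median was -2.82. Their summed level was 321 CPM in WT#1-4 and 3266 in WT#20D-17, against 93.0 and 55.5. Col1a1, the main chain of type I collagen, had 38.2 and 618 CPM against 2.87 and 1.34. Col3a1 had 5.23 and 998 against 0.543 and 0.0926, and Postn, the matrix protein periostin, 9.26 and 511 against 0.741 and 0.417. The wild type lines differed from each other by more than 10 times in these genes. Without WT#20D-17, 12 of 15 were lower, beside 37.9% of all genes, with a median of -2.12. The part of feeder cells in these values was not tested.

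Genes of contractile smooth muscle were lower in 9 of 14 tested out of 15 and higher in 1, with a median of -1.63. Tpm2, a tropomyosin, had 10.1 and 72.2 CPM against 0.79 and 0.833, and Acta2, smooth muscle actin, 30.9 and 778 against 12.5 and 2.31. Of 22 cardiac genes 16 passed, and 9 were lower, 0 higher and 7 overlapping. Actc1, a gene of this list, had 1.52 and 63.2 CPM against 0 and 0. Hand1, a transcription factor of the early heart and extraembryonic mesoderm, had 3.59 and 92.1 against 0.247 and 0.0926. Hand1 is not in the cardiac list but among the study's PCR markers of mesoderm. Endothelial genes were lower in 9 of 13 tested out of 16 and higher in 1. Kdr, the receptor of vascular endothelial growth factor, had 3.03 and 30.9 against 0.296 and 0.231. The claudin of blood vessels, Cldn5, was unlike Kdr, as WT#1-4 was the higher line with 73.6 CPM, against 4.19 in WT#20D-17, 0 in #5-8 and 1.16 in #5-23. The summed level of the endothelial list was also higher in WT#1-4, at 663 CPM against 518 in WT#20D-17, with 290 and 328 in Nox4-/-. Without WT#20D-17 the medians of these lists were -1.25, -0.81 and -0.72, against -1.63, -2.18 and -1.50 with it.

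Of the genes the study used as markers of the germ layers by PCR, the mesoderm panel was lower in 8 of 9 and higher in 0, with a median of -2.31, or -1.04 without WT#20D-17. The endoderm panel had 3 of its 5 genes tested, of which 2 were lower. Gata4, a factor of endoderm and heart, had 3.11 CPM in WT#1-4 and 611 in WT#20D-17, against 1.53 and 1.48. Sox17, a factor of endoderm, had 14 and 3249 counts against 0 and 0. Both wild type lines were above both Nox4-/- lines, but WT#1-4 was much nearer to them than to WT#20D-17. Gata6, with 1.04 and 62.5 CPM against 0 and 1.3, overlapped. Afp, also of this panel, did not pass the filter. It had 0 CPM in WT#1-4 and 273 in WT#20D-17, against 0.0494 in #5-8 and 0 in #5-23, so that only WT#20D-17 expressed it. The ectoderm panel was mixed, with 5 of 7 tested, 1 lower and 2 higher. Otx2, a factor of the forebrain and also of early epiblast, had 2.23 and 70.6 against 0.692 and 0.0926, whereas Pax3, of neural crest and muscle precursors, had 0.12 and 0.676 against 1.58 and 5.23. Nes, the filament protein nestin, overlapped, with 12.0 and 52.9 against 22.1 and 25.0.

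The wider lists of each layer held more genes. Of 24 genes of visceral and definitive endoderm 10 passed, 6 were lower and 0 higher. Their summed level was 105 CPM in WT#1-4 and 7780 in WT#20D-17, against 66.0 and 80.8, so that the level of this list lay almost wholly in 1 line. Its median was -3.41, and -0.51 without WT#20D-17. Genes of the primitive streak were lower in 5 of 10 tested out of 20, among them Eomes with 8.98 and 39.5 CPM against 4.84 and 3.84. Neural genes were lower in 2 and higher in 5 of 14 tested out of 26, with a median of 1.43. Zic1, a factor of neural progenitors, had 0.12 and 1.08 CPM against 2.12 and 56.3, and the neuronal gene Map2 overlapped with 251, 1.94, 49.2 and 5.56. The median of the neural list was 0.13 without WT#20D-17.

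**Figure D3:**
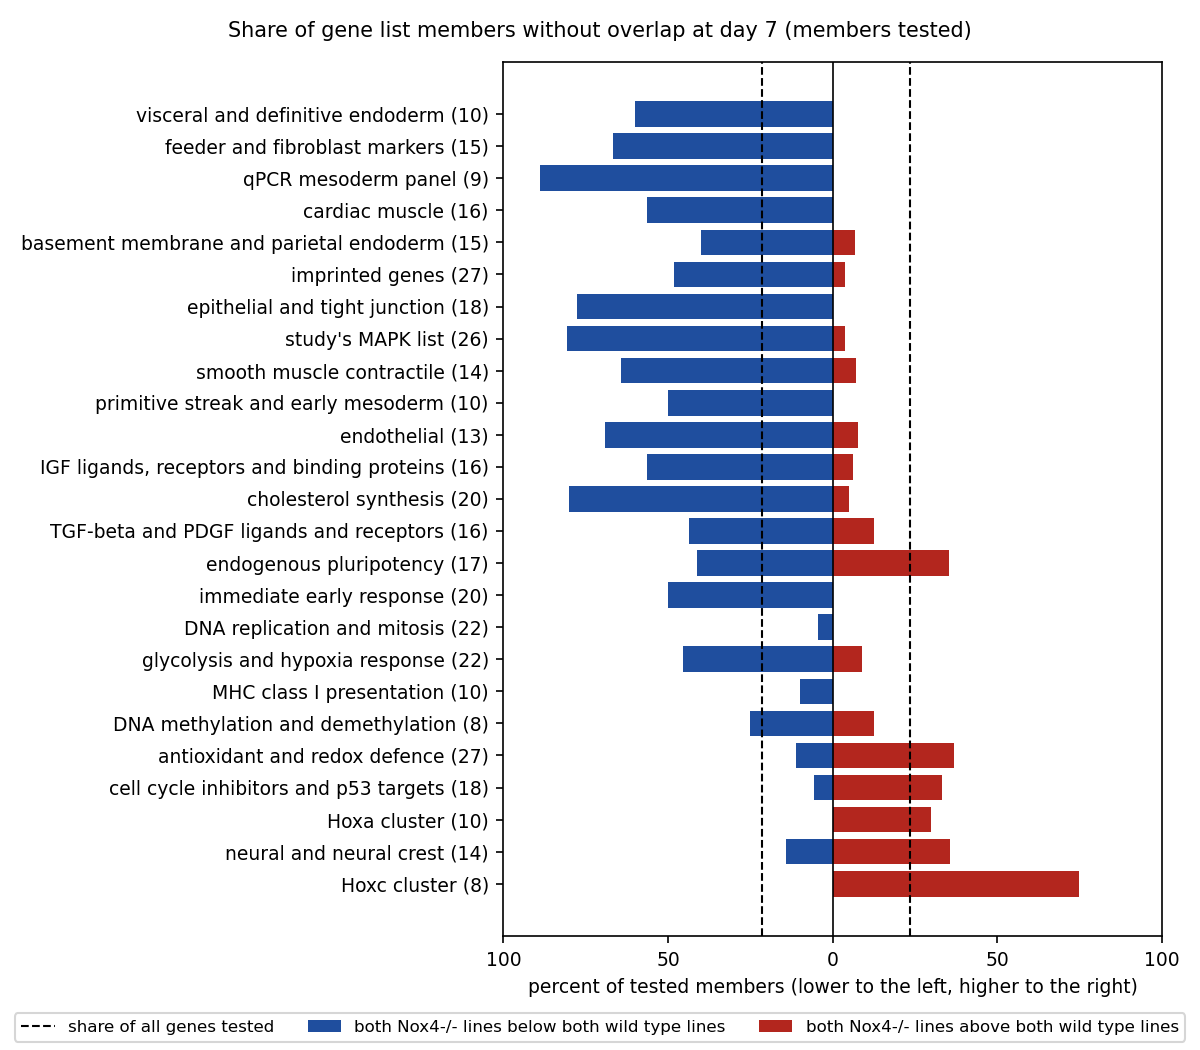
Share of the tested genes of each list that were lower (bars to the left) or higher (bars to the right) in Nox4-/- without overlap on day 7, in percent, for the lists with at least 8 genes tested. Dashed lines mark the shares over all tested genes, 21.5% lower and 23.6% higher.

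More imprinted genes were lower than higher. Of 30 imprinted genes, which are expressed from 1 parental copy, 27 passed, 13 were lower and 1 higher, with a median of -1.90, or -0.61 without WT#20D-17. H19, a non-coding RNA beside Igf2, had 236 and 6138 CPM in wild type against 18.5 and 0.787. Mest, a gene expressed from the paternal copy in mesoderm, had 40.2 and 530 against 5.09 and 4.58. Both genes had the order WT#20D-17, WT#1-4, Nox4-/-, as Igf2 did. On the other days Igf2 was lower as well, from 3.50 and 14.7 CPM against 1.74 and 2.14 on day 0 to 51.8 and 3474 against 1.38 and 1.25 on day 14.

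In the insulin-like growth factor group, 9 of 16 tested genes out of 18 were lower and 1 higher. Igf2r, the receptor that clears IGF2, had 236 and 1027 CPM against 114 and 120, and the binding protein gene Igfbp5 had 22.6 and 295 against 2.67 and 3.56. Igfbp3 was the exception and was higher, at 595 and 644 in Nox4-/- against 455 and 47.8 in wild type. Without WT#20D-17 the counts were 10 lower and 2 higher, beside 37.9% and 38.2% of all genes. Of 16 ligands and receptors of the TGF-beta and PDGF families 7 were lower and 2 higher. Tgfb1 had 9.82 and 42.2 CPM against 2.57 and 1.53, a difference of -2.85 ± 1.03, and the receptor gene Pdgfra 14 and 173 against 1.93 and 3.01. Pdgfa, with 14 and 35.5 against 20.1 and 45.7, and Pdgfb, with 13.3 and 20.5 against 20.5 and 13.2, overlapped. Vegfa, the endothelial growth factor, had 395 and 314 CPM against 109 and 84.1, a difference of -1.87 ± 0.25, and was lower without overlap on all 5 days.

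Immediate early genes, which follow growth factor signals within minutes, were lower in 10 of 20 tested out of 21 and higher in 0, with a median of -0.71. This rested on WT#1-4, since without that line 9 of 21 were lower and 7 higher, near the shares over all genes there (44.3% and 43.2%), and the median was -0.06. Without WT#20D-17 19 of 21 were lower, beside 37.9% of all genes. Jun had 26.3 and 57.8 CPM against 7.95 and 7.45. Atf3, a stress-responsive factor, had 5.91 and 34.3 against 1.14 and 0.88, and Ccn2, a matrix-associated growth factor gene, 126 and 226 against 20.5 and 44.1. In these 3 genes the lower wild type value was above 2 times the higher Nox4-/- value. The genes of MAPK signalling that the study had listed were lower in 21 of 26 and higher in 1. The study chose that list on expression in WT#1-4, #5-8 and #5-23, which are 3 of the lines here, so its direction is not independent evidence. One of its genes, the ephrin Efna1, had 47.5 and 44.0 CPM against 6.82 and 3.98, a difference of -2.90 ± 0.329.

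Genes of the Hoxc cluster were higher in Nox4-/-. These homeobox genes lie side by side on chromosome 15 and specify posterior position. Of 9 genes 8 passed, 6 were higher and 0 lower, with a median of 2.18, and the same lines gave 7 higher and 0 lower on each of days 0, 3, 5 and 14. Hoxc6 had 0.16 CPM in WT#1-4 and 5.04 in WT#20D-17, against 24.8 and 34.8, and Hoxc4 0.918 and 2.97 against 17.5 and 20.6. Both Nox4-/- lines were alike in these genes. In the Hoxa cluster 3 of 10 tested genes were higher and 0 lower. Among the higher ones was Hoxa9, with 13.4 and 26.5 CPM in Nox4-/- against 5.03 and 3.06 in wild type. Of the 4 Hoxd genes tested none were without overlap.

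Antioxidant and redox genes, which handle hydrogen peroxide and related molecules, were higher in 10 and lower in 3 of 27 tested out of 28, with a median of 0.13. Slc7a11, the cystine importer that supplies glutathione synthesis, had 10.6 and 8.15 CPM in wild type against 30.4 and 61.6, a difference of 2.11 ± 0.526. Prdx2, a peroxiredoxin, had 333 and 318 against 497 and 519, Gpx1, a glutathione peroxidase, 183 and 142 against 261 and 290, and Sod2, the mitochondrial superoxide dismutase, 130 and 46.7 against 217 and 205. Gpx7, a peroxidase of the endoplasmic reticulum, went the other way. It had 120 and 159 counts in wild type and 0 and 0 in Nox4-/-, so that its mean wild type level was at least 40.4-fold higher than in Nox4-/-, taken against the floor of 3 counts per library. Without WT#20D-17 the list had 11 higher and 12 lower genes of 27, near the shares over all genes in that setting (38.2% and 37.9%), with a median of -0.08.

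The pluripotency genes were split, with 7 lower and 6 higher of 17 tested out of 24. Among the 6 higher ones were Pou5f1, Sox2 and Klf4, which were also given by retrovirus. Lin28a, an RNA-binding protein of pluripotent cells, had 5.27 and 423 CPM against 0.692 and 0. The 4 genes also given by retrovirus, whose counts do not separate the viral from the endogenous copy, had a summed level of 4118 CPM in WT#1-4, 173 in WT#20D-17, 4400 in #5-8 and 5417 in #5-23. Of these, Klf4 had 516 and 48.2 CPM against 739 and 852, and Myc overlapped with 586 and 26.3 against 549 and 508. In the summed level, Klf4 and Myc, WT#1-4 was thus nearer to the Nox4-/- lines, and WT#20D-17 was far below all 3. Sox2, given above, went otherwise, as WT#1-4 was the lowest of the 4 lines. Among 22 genes of replication and mitosis 1 was lower and 0 higher, and the counts depended on the line left out. Leaving out WT#1-4 gave 16 lower and 1 higher, and leaving out #5-8 gave 19 lower and 2 higher. The lower share over all genes was 44.3% and 34.1% in these settings. Leaving out WT#20D-17 gave 1 lower and 4 higher, beside 37.9% and 38.2% of all genes. Leaving out #5-23 gave 1 lower and 6 higher, beside 5361 and 5695 of 17873 genes. Of 18 cell cycle inhibitors and p53 targets 1 was lower and 6 higher, for example Ccng1 with 457 and 241 CPM against 634 and 704, and Bax with 185 and 116 against 245 and 260. Cdkn1a, of the same list, overlapped, with 499 and 112 against 256 and 274. Without WT#20D-17 8 of the 18 were lower and 7 higher, beside 37.9% and 38.2% of all genes.

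The same clones were sampled on the other days, so these days are not independent of day 7. Without overlap were 35.0% of tested genes on day 0 (16.6% lower, 18.3% higher), 41.4% on day 3 (20.4% and 21.0%), 40.2% on day 5 (20.1% and 20.1%) and 46.5% on day 14 (22.5% and 24.0%). Among the 14201 genes tested on all 5 days, 2839 were lower on day 7. On the other days, 41.2% of them were also lower without overlap on day 0, 55.7% on day 3, 57.8% on day 5 and 63.5% on day 14. All 5 days were shared by 570 (20.1%), and 285 (10.0%) were lower on day 7 only. Of the 3506 higher genes, 39.9% were higher on day 0, 54.1% on day 3, 53.3% on day 5 and 61.5% on day 14, with 528 (15.1%) on all days and 357 (10.2%) on day 7 only. Genes on the opposite side on day 0 numbered 116 of the lower and 122 of the higher ones.

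The genes of the widest gaps were among the stable ones. Of the 12 lower genes 11 were lower without overlap on all other days, Nnt not being tested there. Of the 12 higher genes 10 were higher on all other days, Sox2 on 3 and Serpina3n on 2. Pdpn had 31.8 and 39.4 CPM in wild type against 0.158 and 0.221 on day 0, before differentiation. Hoxc10 had 0.113 and 0.0418 against 18.6 and 33.7 on that day. Sox2 overlapped on day 0, with 33.3 and 199 CPM in wild type and 153 and 200 in Nox4-/-, and its gap was 3.56 on day 14. Of 22 glycolysis and hypoxia genes 10 were lower and 2 higher on day 7. Without WT#1-4 11 were lower and 11 higher, beside 44.3% and 43.2% of all genes. Without WT#20D-17 16 were lower and 3 higher, beside 37.9% and 38.2%. With all 4 lines the counts were 10 lower and 0 higher of 21 on day 0 and 11 and 0 of 21 on day 3. They were 2 and 10 of 21 on day 5, and 6 and 4 of 22 on day 14.

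**Figure D4:**
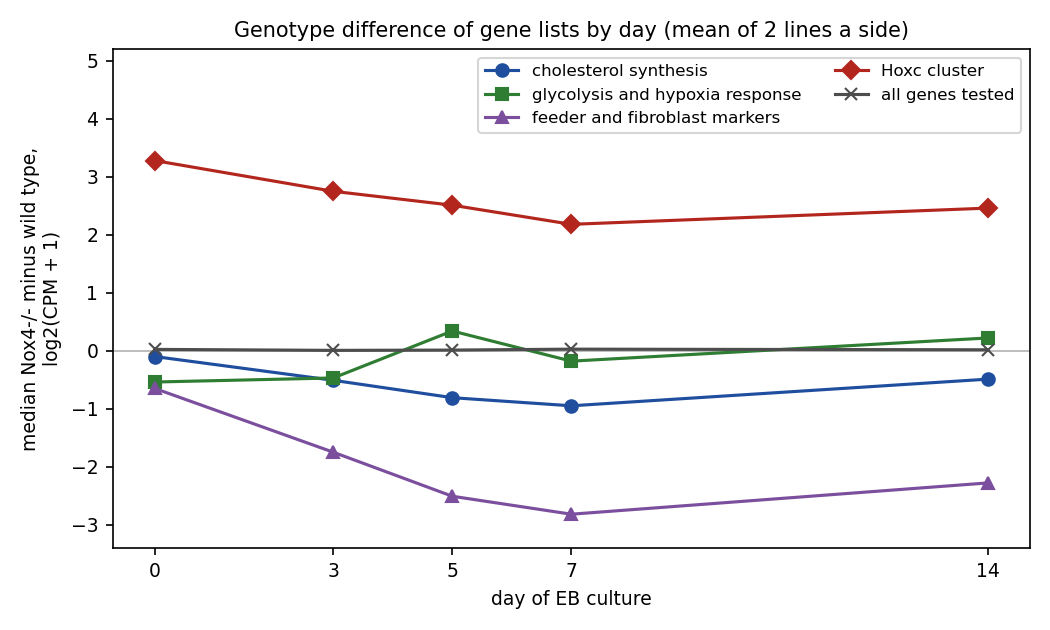
Median difference between genotypes (Nox4-/- minus wild type, on the log2(CPM + 1) scale) of 4 gene lists and of all tested genes on days 0, 3, 5, 7 and 14. Each point is the median over the genes of the list that passed the filter on that day, and the genes that passed differ between days. Cholesterol synthesis moves from -0.10 on day 0 to -0.95 on day 7, while the Hoxc cluster stays above 2.

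Whether the genotype difference on day 7 departed from that on day 0 was tested across all 20 libraries, with the line as a block. Of 19240 genes 4 passed edgeR's quasi-likelihood test at a false discovery rate of 0.05 (0.0208%), and 1161 (6.03%) had an unadjusted p under 0.05. Pitx1, a homeobox gene of hindlimb and pituitary, had 0 and 0.125 CPM in wild type against 6.84 and 2.51 on day 0, and 0.2 and 61.3 against 5.73 and 1.25 on day 7 (edgeR adjusted p = 0.00175). Kit, the receptor of stem cell factor, had 1.58 and 19.1 against 4.63 and 18.7 on day 0, and 9.42 and 94.1 against 2.91 and 11.8 on day 7 (edgeR adjusted p = 0.0121). These moved towards lower values in Nox4-/- relative to wild type. Optn, an autophagy receptor, had 40.1 and 47.9 CPM against 2.73 and 5.05 on day 0, and 59.5 and 35.9 against 19 and 47.2 on day 7 (edgeR adjusted p = 0.0121). Slc16a3, a lactate exporter, had 150 and 155 against 28.4 and 26.0 on day 0, and 316 and 430 against 263 and 273 on day 7 (edgeR adjusted p = 0.0482). In Optn and Slc16a3 a gap present on day 0 was narrower or gone by day 7. None of the 4 passed without WT#20D-17 (edgeR adjusted p-values of 0.407, 0.14, 0.11 and 0.14 in the order given), without #5-8 (0.416 for Pitx1 and 1.0 for the others) or without #5-23 (1.0 for each), whereas all 4 passed without WT#1-4. None passed without the block, or with days 0 and 7 alone and the block (0.943 for each).

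Chromosome 5 stood out in position. Of its 1057 tested genes 10.8% were lower and 32.7% higher, with a median difference of 0.26. The median deviation of its genes from the mean of the 4 lines was 0.38 in #5-23, against -0.15 in WT#1-4, -0.12 in WT#20D-17 and -0.11 in #5-8. The shift therefore lay in 1 Nox4-/- line. Cyp51, Cldn3, Cldn4, Kdr, Pdgfra, Pdgfa and Kit are on this chromosome. On chromosome 14, 24.2% were lower and 12.1% higher, and WT#20D-17 deviated by 0.27. Of 15 mitochondrially encoded genes tested 11 were higher, with a median of 0.64, and WT#20D-17 deviated by -0.69. The part of these shifts in single genes was not tested.

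**Figure D5:**
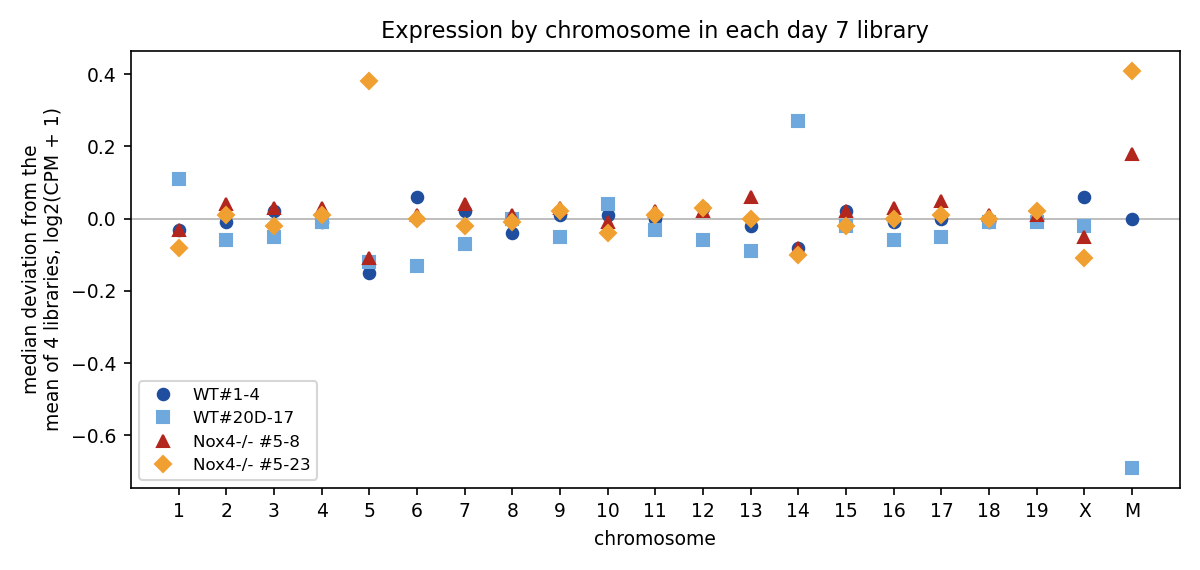
Median deviation of the genes of each chromosome from their mean over the 4 lines on day 7, in log2(CPM + 1) units, with 1 point for each line. The point of #5-23 on chromosome 5 (0.38) and those of WT#20D-17 on chromosome 14 (0.27) and among the mitochondrial genes (-0.69) lie apart from the other lines.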

How the data were processed

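RNA was measured in 4 day 7 libraries, and 20 in all. The last day is given as 14, as in the sample titles and the study's methods, although the protocol text of the labels lists day 10. Per the labels and methods, the authors made stranded mRNA libraries, trimmed paired-end reads with fastx_toolkit, mapped them to mm10 with STAR and deposited expected counts per gene from RSEM, without normalization. RSEM divides reads among genes that share them, and 10038 genes hold decimals. Whether RSEM used the strand is not given in the sources used here.

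Expected counts were rounded. With R 4.3.3 and edgeR 4.0.16, genes were kept by filterByExpr, libraries scaled by TMM and genotypes compared by the quasi-likelihood test with Benjamini-Hochberg adjustment. The fits were first checked on simulated counts. These had less spread than the real libraries, so the check does not show how the tests perform here. Overlap was judged on CPM, and 1 was added before log2. DESeq2 1.42.0, edgeR's exact test, other scalings, filters and thresholds, and each line left out, were the alternatives. The change from day 0 was fitted over 20 libraries with the line as a block. The same clone carries the same label on each day, and the difference between the lines of a genotype on day 0 correlated with that on day 7 across 16516 genes (r = 0.684 in wild type, 0.557 in Nox4-/-).

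Named were Nox4, the study's PCR markers and growth factors, the 12 protein-coding genes in each direction with the widest gap among those with a mean of at least 10 counts, genes passing a test, and from each list up to 4 genes by gap and up to 4 by level. Genes and lists were chosen with earlier results of these data known. Further genes singled out were chosen after their values were seen. Some genes of the cholesterol list are not reported here by name. Lists with fewer than 8 genes tested were left out of the plot by list. Depth limits values near 3 counts, and floors cover counting error only.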

Additional observations from a re-analysis of the deposited data

Results flagged for a closer look

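The genotype difference on day 7 departed from that on day 0 in 4 genes by the test of the difference itself, the genotype-by-day term of edgeR's quasi-likelihood test over 20 libraries. The change, in log2 units of Nox4-/- relative to wild type, was -9.37 for Pitx1 and -3.16 for Kit. It was 2.88 for Optn and 1.99 for Slc16a3. None of the 4 passed the adjusted threshold with WT#20D-17 left out, when the change of Pitx1 was -5.99, or with either Nox4-/- line left out, without the block for the line, or with days 0 and 7 alone. All 4 passed with WT#1-4 left out.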

How the results depend on the processing

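With 4 libraries the tests differed. The quasi-likelihood test called 0 genes on day 7, also with upper quartile scaling, no filter on low counts or a threshold of 0.01, whereas DESeq2 called 753 and the exact test 331, and 1 fit over all 20 libraries called 3. Leaving out a line gave 0 to 3690 calls, the highest without WT#1-4 (1499 higher, 2191 lower), where the lone WT#20D-17 was assumed to vary like the Nox4-/- pair. Of 86 named genes DESeq2 called 58 and the exact test 46, beside 4.78% and 2.1% of all genes tested. Many of these genes were chosen for their gaps in the same libraries, so these counts support nothing further. The cause of the differences between tests was not tested.

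Genes without overlap numbered 626 at a gap of at least 1 (452 lower, 174 higher), and 5091 were lower with no filter on low counts. The lower share was 47.7% and 48.2% to 49.5% with other scalings and filters, but 72.2% at a gap of at least 1. With a line left out, which by construction leaves fewer libraries to overlap, 11056 to 15330 genes did not overlap, 5361 to 7767 lower and 5268 to 7563 higher, with the highest values without WT#1-4.

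For the change from day 0, the 4 calls became 0 with no replicate block for the line, 0 with days 0 and 7 alone and the block, 11 with no filter, 90 by DESeq2 and 1 at a threshold of 0.01. They were 0 to 1733 with a line left out, with 1733 without WT#1-4 and 0 without any other line.

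Some directions turned with a line left out. The log2 fold change of genes that overlapped ran from -2.23 to 1.43 for Cyba, -1.16 to 0.98 for Nes, -4.55 to 3.83 for Map2, -0.25 to 1.24 for Pdgfa, -0.14 to 4.34 for Myc and -4.61 to 4.1 for Pitx1. That of Pdgfb, -0.37 to 0.35, was also 0.03 with no filter and 0.01 over all 20 libraries. List medians ran from -0.2 to 0.18 for NADPH oxidases, -0.08 to 0.59 for antioxidant genes, -0.99 to 0.92 for the ectoderm panel, -0.04 to 1.4 for Hoxa, -0.97 to 1.02 for Hoxb, -0.72 to 1.07 for Hoxd, -0.65 to 0.04 for replication, -0.06 to 0.75 for cell cycle inhibitors, -0.36 to 0.05 for glycolysis, -0.6 to 0.4 for MHC class I and -0.36 to 0.02 for sex-linked genes.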

Other observations

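Some groups had too few separate genes to lead a comparison. Of 11 genes of antigen presentation by MHC class I, 10 were tested, 1 was lower and 0 were higher in Nox4-/- without overlap on day 7. Genes of DNA methylation and demethylation were lower in 2 and higher in 1 of 8 tested. Of 15 germ cell genes 2 passed the filter, and both were lower. Of 10 Hoxb genes 1 passed, and it overlapped. Of 6 sex-linked genes 5 passed, and 1 was lower. Of 14 genes of primitive blood 4 passed the filter, and 2 were lower. Basement membrane genes, which parietal endoderm makes in quantity, were lower in 6 and higher in 1 of 15, with a median of -1.96, or -0.27 without WT#20D-17. Kdm5d, a gene of the Y chromosome, had 65.0 CPM in WT#1-4, 0.676 in WT#20D-17, 81.1 in #5-8 and 60.5 in #5-23, so that it was low in WT#20D-17 alone of these 4 libraries. Ddx3y, another gene of that chromosome, was not low there, with 62.8, 55.3, 57.1 and 57.1 CPM in the same order.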
